A study of Mus musculus with 9 samples.

Results

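The Vmn1r genes encode the vomeronasal type 1 receptors, whose signals were measured in brain RNA from male mice with the single-colour Clariom S array, which has 1 probe set for most genes. Members were all probe sets whose platform symbol was Vmn1r followed by a number. There were 199 such probe sets, 1 for each of 199 genes, among 22206 probe sets, of which 19572 carried a symbol and covered 19505 genes. The samples fell into 3 groups of 3 arrays each. The first held obese C57BL/6JHamSlc-ob/ob mice given VE, an extract of Vigna umbellata, by gavage at 100 mg/kg of body weight for 42 days. The second held C57BL/6JHamSlc-ob/ob mice given vehicle. The third held non-obese wild-type C57BL/6JHamSlc-+/+ mice given vehicle. The ob/ob strain lacks working leptin, the satiety hormone of fat tissue, from birth and in every tissue. All mice were 6 weeks old on arrival, had a week of acclimatisation and ate standard chow. The labels name the tissue only as brain, and the study's design text names white fat and a lower dose, which was not analysed here. Replicates were numbered samples, and nothing more is said of the animals behind them, so that p-values measure the spread between these arrays.

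Vomeronasal type 1 receptors are membrane-spanning receptors, each coded by an uninterrupted exon, on sensory neurons in the apical layer of the vomeronasal organ in the nose. Each neuron is thought to use 1 receptor gene, couples it to the G protein subunit Gnai2 and opens the channel Trpc2, and so detects small volatile or steroid signals from other animals. The genes sit in tandem clusters that have duplicated recently in rodents, and many neighbours differ by few bases. The receptors are known from the nose. The brain is not where these neurons have their cell bodies.

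The members lay on chromosome 7 (95 genes), chromosome 6 (51), chromosome 13 (35), chromosome 17 (14) and chromosome 4 (2), with 1 each on chromosomes 1 and 18, in the RefSeq annotation of GRCm38.p6. Runs of members with at most 20 other genes between them made 16 clusters. The largest, from Vmn1r91 to Vmn1r160 on chromosome 7, held 41 members, and the other 158 lay elsewhere. Older synonyms gave 125 members 1 of 11 V1r subfamily letters, and 74 had none. RefSeq windows of 300 bases, from 250 before to 50 after the annotated gene start, were at hand for 176 members. In 151 of them (85.8%) the start codon ATG stood at base 251, that is, the gene model began at the coding start, against 1915 of 32851 windows of all genes (5.83%). The bases before it are therefore upstream of the coding sequence and need not be the promoter.

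The windows of the large chromosome 7 cluster were near copies of each other. Each of its 40 windows was aligned end to end with all other members' windows, and the closest one was identical at a median of 99.7% of aligned positions. The closest window shared at least 95% in 38 of the 40, and 17 windows were identical to another. Outside the cluster the median of the closest identity was 75.0% over 136 windows, with 16 at 95% or more and 2 identical. Base composition did not set the cluster apart from other members, with a median G and C content of 36.3% against 35.3%, while it was 52.7% over all windows of the table. Identical windows made 8 groups, 7 of them in this cluster. The sequences printed here are those on which the results turn, namely 2 of these shared windows, the close relative Vmn1r121, the bright member Vmn1r100, and Vmn1r197 of chromosome 13. All are RefSeq sequence of GRCm38.p6, read 5′ to 3′ along the gene, with capitals marking the ATG at base 251. The first belongs to Vmn1r114 (chr7:20812137-20812436, minus strand), Vmn1r126 (chr7:21301418-21301717, minus) and Vmn1r250 (chr7:22134692-22134991, minus). Vmn1r121 is at chr7:21098464-21098763 (minus). The next shared window belongs to Vmn1r111 (chr7:20703167-20703466), Vmn1r118 (chr7:20912298-20912597), Vmn1r138 (chr7:22028848-22029147) and Vmn1r257 (chr7:22692268-22692567), all on the minus strand. Vmn1r100 is at chr7:20417692-20417991 and Vmn1r197 at chr13:22327661-22327960, both on the plus strand.
Vmn1r114, Vmn1r126 and Vmn1r250: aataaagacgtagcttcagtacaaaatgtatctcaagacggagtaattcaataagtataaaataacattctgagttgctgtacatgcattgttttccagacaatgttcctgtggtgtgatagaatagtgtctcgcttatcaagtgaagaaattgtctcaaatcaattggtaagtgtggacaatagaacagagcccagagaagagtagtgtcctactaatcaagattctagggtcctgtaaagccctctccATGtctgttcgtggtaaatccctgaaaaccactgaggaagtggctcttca
Vmn1r121: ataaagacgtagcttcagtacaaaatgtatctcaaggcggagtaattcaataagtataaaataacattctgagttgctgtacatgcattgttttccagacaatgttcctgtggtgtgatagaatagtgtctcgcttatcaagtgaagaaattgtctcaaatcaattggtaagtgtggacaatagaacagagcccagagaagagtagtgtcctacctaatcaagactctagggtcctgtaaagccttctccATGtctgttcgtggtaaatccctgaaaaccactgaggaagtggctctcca
Vmn1r111, Vmn1r118, Vmn1r138 and Vmn1r257: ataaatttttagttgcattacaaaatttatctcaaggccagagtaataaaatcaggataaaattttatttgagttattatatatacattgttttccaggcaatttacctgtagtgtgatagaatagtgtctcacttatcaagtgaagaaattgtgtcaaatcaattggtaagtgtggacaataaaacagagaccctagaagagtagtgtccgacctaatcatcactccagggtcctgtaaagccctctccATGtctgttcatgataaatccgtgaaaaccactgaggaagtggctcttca
Vmn1r100: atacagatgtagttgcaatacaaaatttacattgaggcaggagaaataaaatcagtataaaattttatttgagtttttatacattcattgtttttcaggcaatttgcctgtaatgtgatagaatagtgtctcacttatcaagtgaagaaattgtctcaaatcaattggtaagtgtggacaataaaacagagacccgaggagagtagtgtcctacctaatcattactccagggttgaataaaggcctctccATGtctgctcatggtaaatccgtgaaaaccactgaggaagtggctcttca
Vmn1r197: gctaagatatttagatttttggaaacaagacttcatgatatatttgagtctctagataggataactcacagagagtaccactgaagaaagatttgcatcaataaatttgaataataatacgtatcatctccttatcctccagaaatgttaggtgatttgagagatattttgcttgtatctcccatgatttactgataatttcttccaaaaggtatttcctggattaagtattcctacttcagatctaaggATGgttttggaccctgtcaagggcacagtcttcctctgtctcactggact
The Vmn1r121 window was 98.0% identical to that of Vmn1r114. The window shared by Vmn1r111 and its 3 copies was 85.4% identical to it. The Vmn1r197 window was closest to another member's at 83.3%.

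Values are log2 signals as the authors deposited them, on which a step of 1 is a doubling. A signal depends on a probe set's own probes as well as on its RNA, so that an order of levels between genes is an order of signal and not of abundance. The members' median signal over the 9 arrays was 5.80, against 7.13 for all probe sets, which put the median member at the 27.4th percentile. They ran from 3.40 for Vmn1r80 to 9.27 for Vmn1r126. Probe sets of genes of other tissues, such as liver, testis and pancreas genes (33 of the 36 listed were measured), had a median of 5.66, close to that of the receptors. In the same arrays 11 of 12 listed brain markers were measured and lay between 10.45 and 18.58, and 8 of 10 white fat markers were measured and lay between 4.33 and 6.48, so the arrays carry the labelled tissue's markers. Of the brain markers, the astrocyte genes Gfap and Aqp4 were called lower in ob/ob vehicle than in wild-type brains in limma, by -1.40 (adjusted p = 0.0394) and -0.91 (adjusted p = 0.0467) on the log2 scale, and their part in the receptors' values was not tested. Whether a receptor was above the array's background was not tested, since detection calls were not used here.

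Of the 199 members, 42 lay above the median signal of all probe sets, and 30 of these belonged to the Vmn1r91 to Vmn1r160 cluster. The cluster's median signal was 7.82, against 5.58 for the other 158 members. The brightest were Vmn1r126 (9.27), Vmn1r114 (9.22), Vmn1r112 (9.13), Vmn1r250 (9.0), Vmn1r100 (8.78) and Vmn1r148 (8.78), all of this cluster. Of these 6, 3 share the window printed first. The dimmest were Vmn1r80 (3.40), Vmn1r66 (3.68) and Vmn1r37 (3.74).

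Near copies limit what a single probe set can show. Vmn1r100 and Vmn1r148 carried the same value on all 9 arrays, as did Vmn1r62 and Vmn1r186, and Vmn1r63 and Vmn1r187. Such pairs are counted as 2 members each in the counts given here but are 1 measurement. The windows of Vmn1r100 and Vmn1r148 were only 50.1% identical, while that of Vmn1r100 was 99.3% identical to that of Vmn1r112. The Vmn1r148 window had no ATG at base 251, unlike 39 of the cluster's 40 windows. It need not cover the same part of its gene as the Vmn1r100 window, so the 50.1% does not measure how alike these genes are. The probe sequences were not used here, so which copies each probe set reads cannot be told apart, and the cluster's genes are best read as a group.

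Of the genes that serve these receptors, Gnai2 had a mean signal of 12.64 and Gnao1, its counterpart in neurons with type 2 receptors, 17.97, but both are used throughout the brain. Omp, the olfactory marker protein of mature vomeronasal and olfactory neurons, was at 5.12, and the vomeronasal G protein subunit Gng8 was at 5.16. Both lay below the median receptor, in every group. They were the lowest of the 12 vomeronasal neuron markers measured, and the others ran from 5.97 for Kirrel2 to 13.17 for Meis2. Omp ranged from 4.87 to 5.18 in VE-treated ob/ob mice, from 5.09 to 5.67 in ob/ob vehicle mice and from 4.77 to 5.13 in wild-type mice. Trpc2 was not analysed here. None of 14 transduction genes or 12 vomeronasal neuron markers was called in any comparison. Of all probe sets, 1.27% were called for ob/ob vehicle against wild type. For VE, 0.486% were called against ob/ob vehicle and 0.0991% against wild type. The markers' array medians averaged 8.51 in ob/ob vehicle and 8.82 in wild-type brains, and 8.53 and 8.72 after quantile normalization. Those of the transduction genes averaged 9.88 and 9.85, then 9.93 and 9.72.

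The first comparison asks how the obese strain differs from the wild type. Of 199 receptors, 1 was called higher in ob/ob vehicle brains than in wild-type brains and none lower, at an adjusted p under 0.05 in limma, with Benjamini-Hochberg adjustment over all 22206 probe sets. Over all probe sets 1.27% were called, and 0.536% were called higher. Without a call for most genes, the family still sat higher. The median difference was 0.32 on the log2 scale against 0.02 for all probe sets, and 172 members were higher and 27 lower in ob/ob (51.2% of all probe sets were higher). After quantile normalization, which gives all arrays the same distribution, 139 were higher and 60 lower (49.1% of all probe sets were higher). In bulk tissue, fewer cells of a type and less RNA per cell cannot be told apart.

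The called receptor was Vmn1r197, a V1rh gene of the chromosome 13 cluster. Its signals were 9.08, 8.66 and 9.30 in ob/ob vehicle brains, against 7.91, 7.75 and 7.70 in wild-type brains. Every ob/ob array was above every wild-type array. The difference was 1.23 (SE 0.234, adjusted p = 0.0366 in limma, higher in 3 of 3 arrays). It passed under 12 of 19 alternatives, with adjusted p between 0.00115 and 0.196, and failed when the third VE array or any of the 6 vehicle arrays was left out. Without 1 of these 6 arrays, 0% to 0.0946% of all probe sets were called, and without the third VE array 0.441%. The neighbours of Vmn1r197 had a smaller difference as a set, with a median of 0.22 over the 35 members of that chromosome 13 cluster. Over the 20 V1rh genes it was 0.10.

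The members of largest difference after Vmn1r197 were Vmn1r244 (1.02), Vmn1r126 (1.02), Vmn1r120 (1.02) and Vmn1r79 (0.99), and none of these passed the threshold. Vmn1r126 read 9.82, 9.95 and 10.21 in ob/ob vehicle brains, against 8.82, 9.16 and 8.94 in wild-type brains, with an adjusted p of 0.0678 in limma. Vmn1r120 read 8.27, 8.41 and 8.72 in ob/ob vehicle brains, against 7.32, 7.59 and 7.44 in wild-type brains (adjusted p = 0.0816, limma). In both genes the groups did not overlap. Vmn1r79, of another chromosome 7 cluster, read 6.84, 7.22 and 7.76 in ob/ob vehicle brains, against 6.55, 6.36 and 5.95 in wild-type brains (adjusted p = 0.0722, limma). The most negative differences were small, with -0.43 for Vmn1r235, -0.35 for Vmn1r46, -0.33 for Vmn1r189, -0.32 for Vmn1r17 and -0.29 for Vmn1r81, and none passed.

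Without adjustment, 49 members had p under 0.05 and were higher, and none was lower, where 9.88% of all probe sets met this and were higher. All 3 ob/ob arrays lay above all 3 wild-type arrays in 58 members, 29.1% of the family, against 15.8% of all probe sets. No member had the groups apart in the other direction, against 17.5% of all probe sets. After quantile normalization the groups were apart in 42 members upward (21.1%, against 13.8% of all probe sets) and in 9 downward (4.52%, against 15.1%). Of the 58, 22 were among the 41 genes of the Vmn1r91 to Vmn1r160 cluster.

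**Figure D1:**
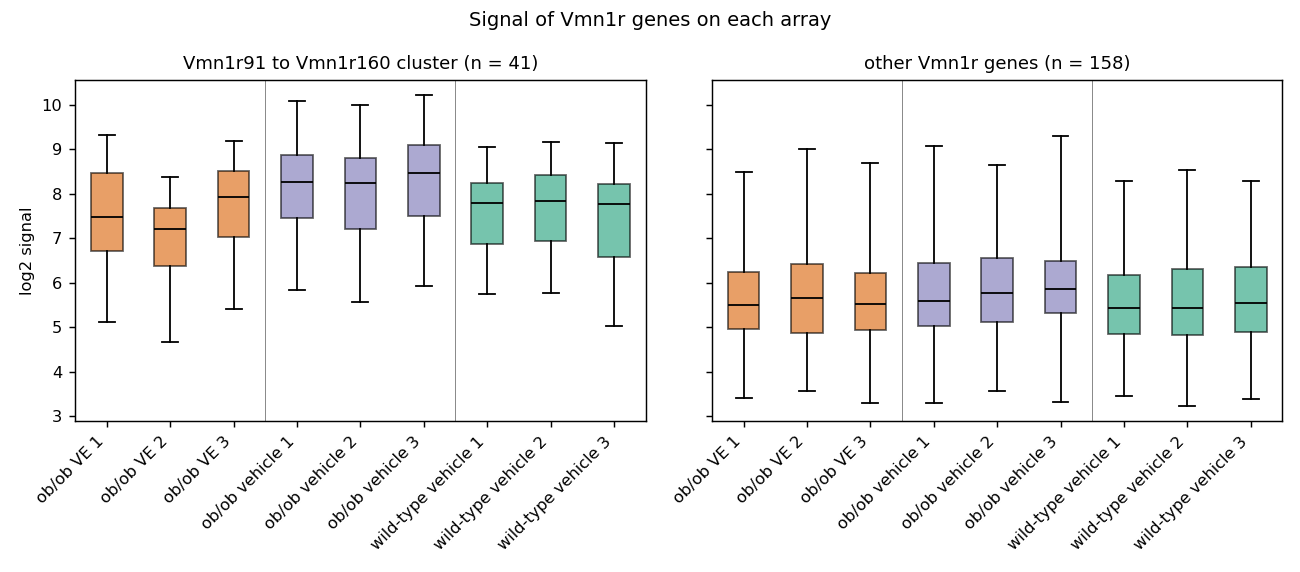
Log2 signal on each of the 9 arrays for the 41 genes of the Vmn1r91 to Vmn1r160 cluster (left) and the 158 other Vmn1r genes (right), with boxes for the quartiles, a line for the median and whiskers to the lowest and highest gene. The cluster's medians on the ob/ob vehicle arrays lie between 8.25 and 8.46, above those of all other arrays.

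The large cluster and the rest of the family differed in size of this shift. The median difference was 0.57 in the Vmn1r91 to Vmn1r160 cluster, with 38 of 41 genes higher in ob/ob, and 0.29 in the other 158 members. The cluster's median signal was 8.27, 8.25 and 8.46 on the ob/ob vehicle arrays, against 7.79, 7.85 and 7.77 on the wild-type arrays. For the other members it was 5.60, 5.77 and 5.86 against 5.44, 5.43 and 5.54. As deposited, neither set's groups overlapped. After quantile normalization the cluster's still did not, while those of the other members did, with 5.56, 5.67 and 5.70 on the ob/ob vehicle arrays against 5.55, 5.52 and 5.61 on the wild-type arrays.

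Low signals as a whole were higher in ob/ob arrays, so each member was also set against probe sets of like level. For this, all probe sets were cut into 20 equal bins of mean signal, and the median difference of the bin's probe sets other than chemosensory receptors was taken off. The family's median difference was then 0.16 and that of the members outside the cluster to 0.12, while the cluster's was 0.62. Against these probe sets 140 members were higher and 59 lower, and outside the cluster 104 of 158 were higher. Quantile normalization gave 0.15 for the family, 0.11 outside the cluster and 0.61 in it. Genes of other tissues, at a like signal, had 0.30 as deposited and 0.13 after quantile normalization. Outside the cluster both adjustments left a smaller difference than the deposited values, and in the cluster neither did. No test of a set was made.

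**Figure D2:**
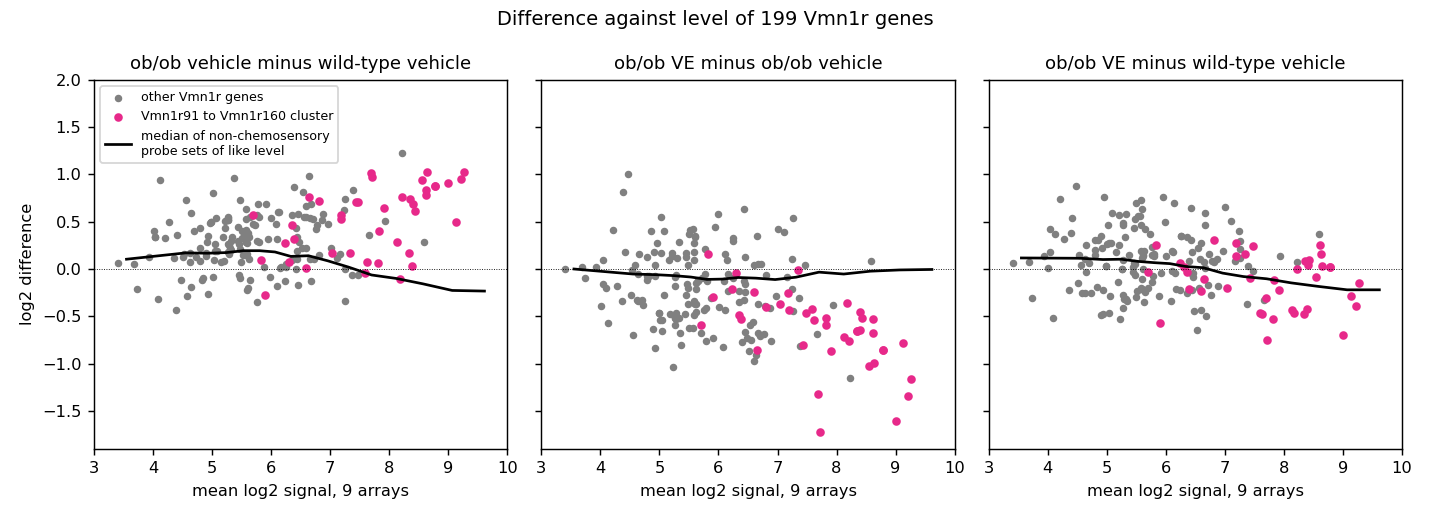
Log2 difference (vertical axis) against mean log2 signal over 9 arrays (horizontal axis) of each of 199 Vmn1r genes in the 3 comparisons, with the median of non-chemosensory probe sets of like level as a line. Genes of the Vmn1r91 to Vmn1r160 cluster lie above that line in 36 of 41 cases for ob/ob vehicle minus wild type and below it in 38 of 41 for VE minus ob/ob vehicle (51.5% of all probe sets lie above it and 51.2% below it).

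After quantile normalization 8 receptors were called higher in ob/ob and none lower, against 2.84% of all probe sets called (1.72% higher). They were Vmn1r197 (1.29) and, in the cluster, Vmn1r126 (1.18), Vmn1r114 (1.11), Vmn1r137 (1.04), Vmn1r143 (0.94), Vmn1r125 (0.90), Vmn1r117 (0.83) and Vmn1r119 (0.77). Cyclic loess called 12, of which 11 lay in the cluster, against 3.64% of all probe sets.

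The second comparison asks what VE did in the obese strain. Here 2 receptors, both of the large chromosome 7 cluster, were called lower in VE-treated than in vehicle ob/ob brains, and none higher. Of all probe sets 0.486% were called, 0.473% lower. The family's median difference was -0.32, against -0.07 for all probe sets, with 145 members lower and 54 higher (58% of all probe sets were lower). After quantile normalization 128 were lower and 71 higher (47.2% of all probe sets were lower). This comparison and the first share the ob/ob vehicle arrays, so an ob/ob array that read high raises 1 difference and lowers the other.

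Vmn1r121 had signals of 7.40, 6.24 and 7.03 in VE-treated ob/ob brains, against 8.47, 8.43 and 8.93 in vehicle ob/ob brains. All VE arrays were below all ob/ob vehicle arrays, and the second VE array was the lowest. The gene fell by 1.72 (SE 0.281, adjusted p = 0.0334 in limma). Over 19 alternatives its adjusted p ran from 8.49e-05 to 0.209, and it passed in 11. In wild-type brains it read 7.47, 7.85 and 7.59.

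Vmn1r250 had 8.98, 7.54 and 8.18 in VE-treated ob/ob brains, against 9.63, 9.74 and 10.15 in vehicle ob/ob brains. The groups did not overlap, and the gene fell by 1.61 (SE 0.309, adjusted p = 0.0403 in limma). It passed under 9 of 19 alternatives, with adjusted p from 0.000107 to 0.231. Both calls were lost when any ob/ob vehicle or wild-type array was left out, and that of Vmn1r250 also without the third VE array. Without 1 of these vehicle arrays, 0% to 0.0721% of all probe sets were called in this comparison, and without the third VE array 0.432%. Vmn1r114 and Vmn1r126 share their whole window with Vmn1r250 and were not called. Vmn1r114 read 9.31, 8.05 and 8.55 in VE-treated ob/ob brains, against 9.73, 9.99 and 10.22 in vehicle ob/ob brains, a difference of -1.34 (adjusted p = 0.0587, limma). Vmn1r126 read 9.33, 8.25 and 8.91 in VE-treated ob/ob brains, against the ob/ob vehicle values given above, a difference of -1.16 (adjusted p = 0.0681, limma). In each of the 3 genes the second VE array gave the lowest value.

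Vmn1r197 read 8.22, 7.55 and 7.81 in VE-treated ob/ob brains, below all 3 ob/ob vehicle arrays, with a difference of -1.15 (adjusted p = 0.0508, limma). Vmn1r120 read 7.24, 6.48 and 7.71 in VE-treated ob/ob brains, a difference of -1.32 (adjusted p = 0.0587, limma). Neither passed on the deposited values. After quantile normalization 6 receptors were called lower and none higher, namely Vmn1r121, Vmn1r250, Vmn1r114, Vmn1r120, Vmn1r126 and Vmn1r197, against 1.46% of all probe sets called (1.19% lower).

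**Figure D3:**
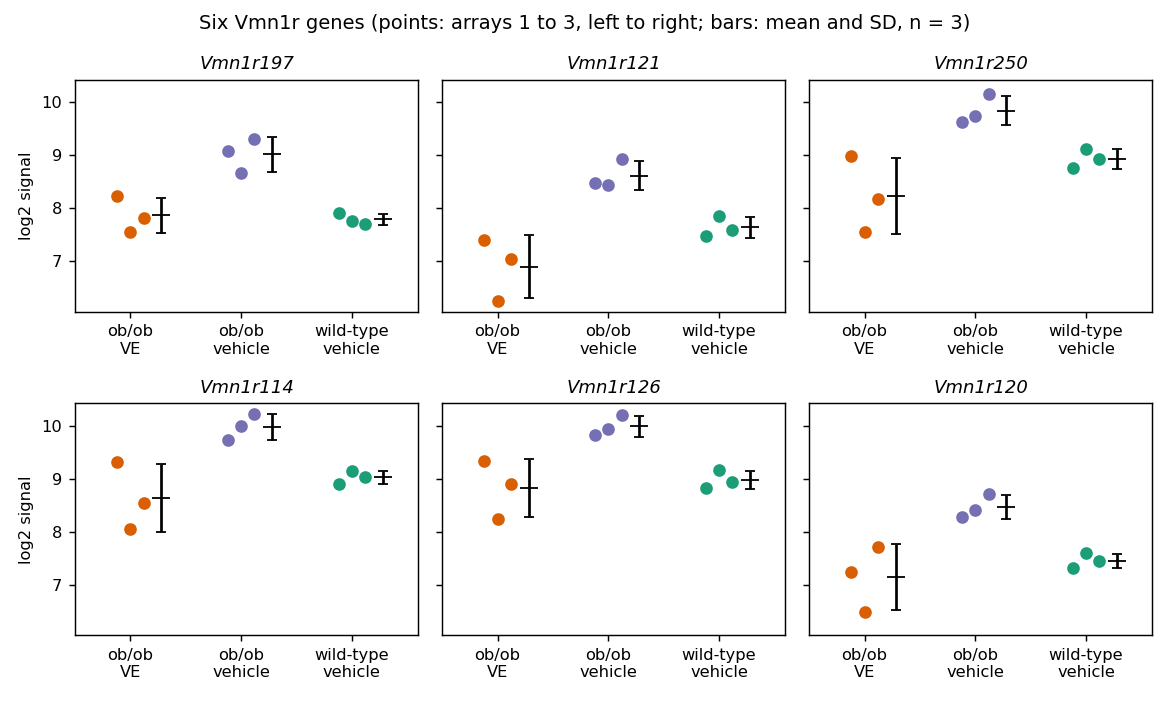
Log2 signals (vertical axis) of Vmn1r197, Vmn1r121, Vmn1r250, Vmn1r114, Vmn1r126 and Vmn1r120 in VE-treated ob/ob, vehicle ob/ob and vehicle wild-type brains, with 1 point per array (replicates 1 to 3 from left to right) and the mean with its SD over 3 arrays at the side. In each gene all ob/ob vehicle points lie above all others.

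The most positive differences had no call. Vmn1r61 read 4.62, 6.53 and 4.15 in VE-treated ob/ob brains, against 3.56, 4.39 and 4.35 in vehicle ob/ob brains. Its difference of 1.0 (adjusted p = 0.419, limma) rested on the second VE array, and the lowest of its alternatives was 0.08. Vmn1r78 read 6.29, 7.98 and 6.29 in VE-treated ob/ob brains, against 6.05, 6.30 and 6.30 in vehicle ob/ob brains, and again the second array alone stood out. Vmn1r235 (0.81) and Vmn1r219 (0.58) likewise did not pass.

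Without adjustment 49 members had p under 0.05 and were lower and none was higher, where 10.1% of all probe sets were lower by this rule. All VE arrays lay below all ob/ob vehicle arrays in 45 members, 22.6% of the family, against 11.9% of all probe sets, and above them in 1 member, against 4.62%. Of the 45, 19 belonged to the Vmn1r91 to Vmn1r160 cluster. After quantile normalization 33 members were apart downward (16.6%, against 10.1% of all probe sets) and 5 upward (2.51%, against 10.2%).

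In that cluster 40 of 41 genes were lower with VE, with a median difference of -0.59. The exception was Vmn1r124 (0.16). The cluster's median signal was 7.49, 7.21 and 7.93 on the VE arrays, against 8.27, 8.25 and 8.46 on the ob/ob vehicle arrays, with no overlap. Outside the cluster the median difference was -0.19, and the array medians of 5.50, 5.65 and 5.53 in VE-treated ob/ob brains and 5.60, 5.77 and 5.86 in vehicle ob/ob brains did overlap. Against probe sets of like level the cluster had -0.51 and the others -0.13, and after quantile normalization -0.49 and -0.08.

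The second VE array stood apart from the other 8 over all probe sets. Its correlation with them was 0.962 to 0.970, where theirs with each other were 0.979 to 0.993, and the SD of its signals was 2.38 against 2.56 to 2.84. Without it the cluster's median difference between VE and ob/ob vehicle was -0.44 and that of the other members -0.21. The direction thus did not rest on that array.

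**Figure D4:**
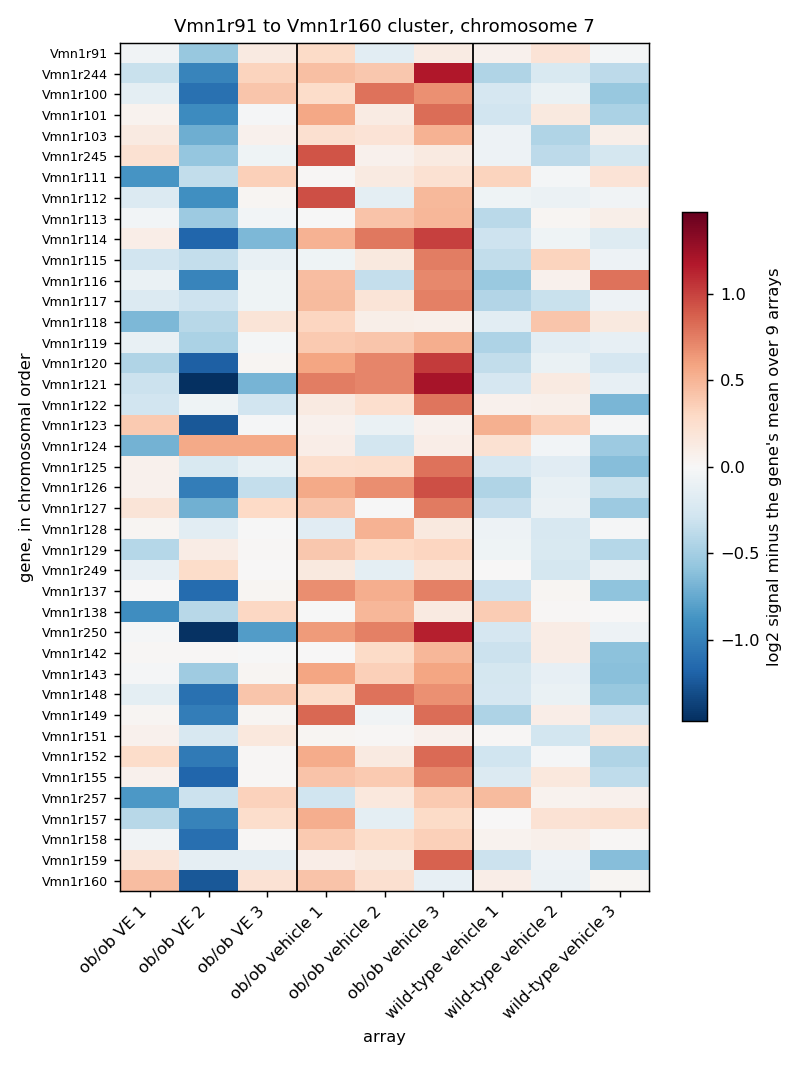
Log2 signal of the 41 genes of the Vmn1r91 to Vmn1r160 cluster (rows, in chromosomal order) on 9 arrays (columns), as the difference from each gene's mean over the arrays. The ob/ob vehicle mean is above the mean over the 9 arrays in 40 of the 41 genes, and the second VE array is the lowest in 25.

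Between VE-treated ob/ob and wild-type brains no receptor was called in limma, and 0.0991% of all probe sets were. Of the receptors, 12 had an unadjusted p under 0.05, with 9 higher and 3 lower (6.03%, against 12.2% of all probe sets). Quantile normalization also called none (0% of all probe sets), and array weights called 22, or 11.1%, against 14.8% of all probe sets. The family's median difference was 0.07, and 118 members were higher and 81 lower (41% of all probe sets were higher). The cluster's was -0.09, and 0.12 without the second VE array, so that its direction depended on that array.

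Single receptors were spread on both sides of zero here. The most positive were Vmn1r61 (0.88), Vmn1r203 (0.76), Vmn1r237 (0.76), Vmn1r47 (0.74) and Vmn1r56 (0.73). In the same order, the lowest of their alternatives were 0.05, 0.17, 0.45, -0.01 and 0.63. The most negative were Vmn1r121 (-0.75), Vmn1r250 (-0.69), Vmn1r216 (-0.65), Vmn1r123 (-0.57) and Vmn1r71 (-0.53). For Vmn1r216, Vmn1r123 and Vmn1r71 the alternatives nearest zero were -0.19, -0.09 and -0.15. The 2 receptors called lower with VE against ob/ob vehicle were also the lowest against wild type, without a call unless array weights were used. Both comparisons share the VE arrays, so low VE values lower both differences, and this rank is not a separate result. For Vmn1r121 and Vmn1r250 the alternatives nearest zero were -0.39 and -0.28. Array weights called both (adjusted p = 0.0179 and 0.0125, limma), where 14.8% of all probe sets were called.

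The large cluster was not uniform, and some of its groups of identical windows were not uniform either. In the 3 genes of the first printed window (Vmn1r114, Vmn1r126 and Vmn1r250), ob/ob vehicle minus wild type was 0.91 to 1.02 and VE minus ob/ob vehicle -1.61 to -1.16. In the 4 genes of the other shared window (Vmn1r111, Vmn1r118, Vmn1r138 and Vmn1r257), the same differences were -0.11 to 0.07 and -0.54 to -0.36. Vmn1r111 read 6.72, 7.22 and 7.94 in VE-treated ob/ob brains, 7.61, 7.72 and 7.81 in vehicle ob/ob brains and 7.92, 7.56 and 7.79 in wild-type brains, and the vehicle groups overlapped. Vmn1r120 and Vmn1r244, which share another window, had 1.02 each and then -1.32 and -1.0. Vmn1r101 and Vmn1r149 had 0.71 and 0.76, then -0.80 and -0.86. Vmn1r103 and Vmn1r151, also with 1 shared window, differed more, with 0.46 and 0.07, then -0.49 and -0.05. Vmn1r112 and Vmn1r157 ran from 0.07 to 0.50, then from -0.78 to -0.60. Vmn1r123 and Vmn1r160 ran from -0.27 to 0.17, then from -0.37 to -0.30. Whether the first group differed from the other was not tested.

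Genes of a shared window tended to vary together over the 9 arrays. Pearson correlations were 0.954 to 0.988 among Vmn1r114, Vmn1r126 and Vmn1r250, 0.970 between Vmn1r101 and Vmn1r149, and 0.569 to 0.939 among Vmn1r111 and its 3 copies. In the other groups they ran from 0.594 (Vmn1r47 and Vmn1r48, outside the cluster) to 0.953 (Vmn1r120 and Vmn1r244). Over all 820 pairs of the cluster the median was 0.57, against 0.13 over the 12403 pairs of other members. After quantile normalization these were 0.47 and 0.02. These are descriptions over 9 arrays that share groups, array-wide shifts and, within the cluster, near-identical sequence.

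**Figure D5:**
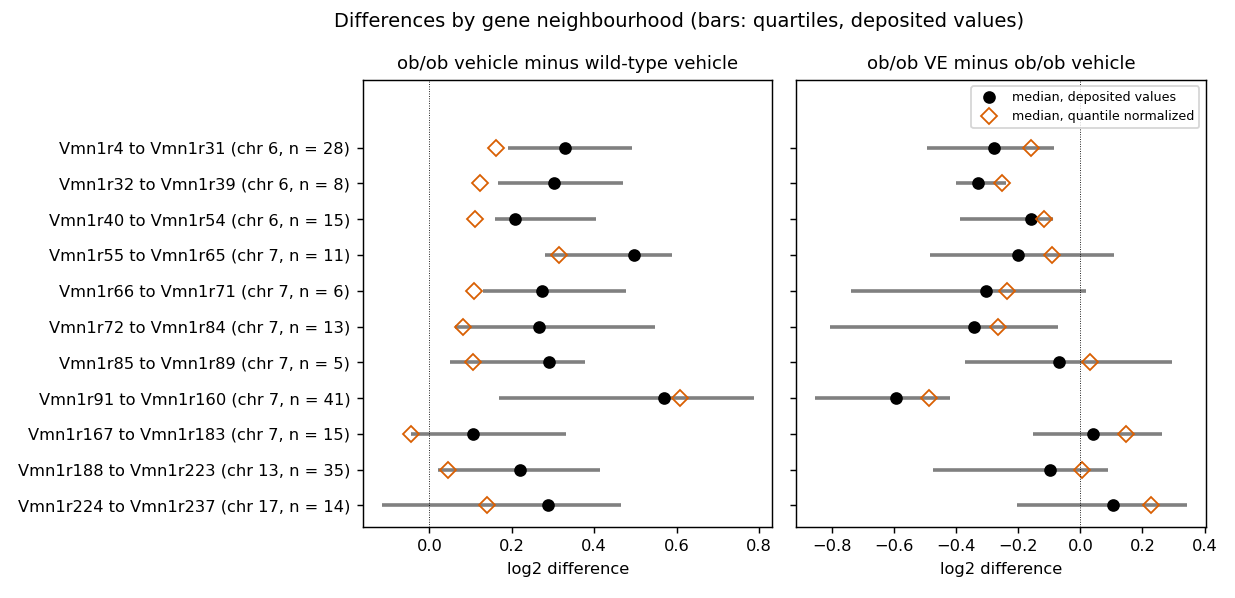
Median log2 difference of Vmn1r genes (horizontal axis) in each of the chromosomal clusters with 5 or more members (rows), for ob/ob vehicle minus wild type and VE minus ob/ob vehicle, as deposited (filled, with bars for the quartiles) and after quantile normalization (open). The Vmn1r91 to Vmn1r160 cluster has the most positive median on the left and the most negative on the right, by either set of values.

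The other clusters of 5 or more members had smaller medians, while the pair Vmn1r2 and Vmn1r3 (0.71) and the lone Vmn1r238 (0.74) had larger ones for ob/ob vehicle minus wild type. For ob/ob vehicle minus wild type, medians of the clusters of 5 or more other members ran from 0.11 (Vmn1r167 to Vmn1r183) to 0.50 (Vmn1r55 to Vmn1r65), and after quantile normalization from -0.04 to 0.31. Vmn1r167 to Vmn1r183 lies beside the large cluster on chromosome 7 and has a median closest window identity of 92.2%. For VE minus ob/ob vehicle they ran from -0.34 (Vmn1r72 to Vmn1r84) to 0.10 (Vmn1r224 to Vmn1r237 on chromosome 17). In the chromosome 17 cluster the second VE array had a median signal of 5.84, against 5.31 and 5.32 on the other VE arrays. The 12 members outside the cluster whose signal was above the median of all probe sets had a median difference of 0.32 and the 30 cluster members so placed 0.70.

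By subfamily letter, the V1rc genes of chromosome 6 (31 members) had medians of 0.34 for ob/ob vehicle minus wild type and -0.32 for VE minus ob/ob vehicle. The V1rh genes (20 members) had 0.10 and -0.01, and the V1ri genes, also of chromosome 13 (9 members), 0.42 and -0.34. In the V1ra (9) and V1rb (6) genes they were 0.21 and -0.16, and 0.26 and -0.35. Loss of a run of V1ra and V1rb genes is known to weaken maternal aggression in mice. The 5 V1rf genes had 0.40 and 0.27. Their median signal was 4.82, 5.83 and 5.25 on the VE arrays, against 4.72, 4.84 and 5.45 on the ob/ob vehicle arrays. The second VE array was thus their highest. It was also the highest VE array for V1rh (6.89, against 6.18 and 6.13) and the lowest for V1ri (5.26, against 6.36 and 6.56). No gene of these letters other than Vmn1r197 was called.

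Receptors of known ligand class had low signals. Vmn1r49 (V1rb2), a receptor for the urinary ketone heptanone, read 3.84, 4.33 and 4.00 in VE-treated ob/ob brains, 4.73, 3.85 and 5.31 in vehicle ob/ob brains and 3.86, 3.76 and 3.45 in wild-type brains. Its difference of 0.94 between ob/ob vehicle and wild type had an adjusted p of 0.130 (limma), and the 3 groups were all near the bottom of the scale. Vmn1r85 and Vmn1r89, of the V1rj subfamily that responds to sulfated steroids, had mean signals of 5.61 and 5.02. Vmn1r85 read 5.58, 4.92 and 5.97 in VE-treated ob/ob brains, 5.80, 6.28 and 5.51 in vehicle ob/ob brains and 5.56, 5.28 and 5.62 in wild-type brains. Vmn1r89 read 4.65, 6.57 and 4.87 in VE-treated ob/ob brains, 4.39, 4.96 and 5.08 in vehicle ob/ob brains and 4.77, 4.91 and 5.0 in wild-type brains, so that 1 array set its VE mean. In all 3 genes the groups overlapped in both comparisons, and none was called.

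The other receptors of the vomeronasal and olfactory systems served as a comparison. The 120 Vmn2r genes, type 2 vomeronasal receptors of the basal neurons, had medians of 0.28 for ob/ob vehicle minus wild type and -0.16 for VE minus ob/ob vehicle, and none was called. The 1080 Olfr genes, the odorant receptors of the main olfactory epithelium, had 0.36 and -0.28. Those of the Vmn1r genes outside the large cluster, 0.29 and -0.19, lay close to both.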

How the data were processed

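Brain RNA of male mice was measured on 9 Clariom S mouse arrays. The authors deposited log2 signals. Per the labels, these came from signal space transformation with RMA, run in version 4.0.2 of Transcriptome Analysis Console (version 4 in the submitters' processing notes). The members and lists were chosen with earlier results of these data known. Gene names came from the platform annotation and positions and windows from RefSeq (GRCm38.p6).

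Differences were fitted with limma 3.58.1 in R 4.3.3 on all 22206 probe sets, with 3 group means over 9 arrays, empirical Bayes (7.03 prior and 6 residual degrees of freedom) and p-values adjusted by Benjamini-Hochberg, and a call was an adjusted p under 0.05. No filter on low values was used, so all 199 members were tested. Standard errors of members ran from 0.190 to 0.503. The number of arrays limits the precision. The steps were tested on simulated data.

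Alternatives were quantile, median-centred and cyclic loess values, trend with robust fitting, array weights, probe sets above the median or with 1 symbol, 2 groups alone, a replicate block, the authors' rule (p under 0.05, fold over 1.1), and leaving out each array. Quantile normalization without the second VE array was added after seeing the data. Windows were aligned end to end with Biopython 1.88 (match 1, mismatch -1, gap opening -2, extension -0.5). Named genes were called members, the 5 largest and smallest differences and 5 smallest p in each comparison, the 6 highest and 3 lowest signals, and 3 genes of known ligand; other names were chosen after their values were seen. The protein comparison that was planned was not run.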

Additional observations from a re-analysis of the deposited data

How the results depend on the processing

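The count of receptors called higher in ob/ob vehicle than in wild-type brains (1) was 8 with quantile normalization, 12 with cyclic loess, 41 with array weights, 26 with 2 groups alone, 49 by the authors' rule and 21 with quantile normalization without the second VE array, and leaving out 1 array gave 0 to 33 (33 without the second VE array). The count called in VE against ob/ob vehicle (2) was 6 with quantile normalization, cyclic loess, trend with robust fitting and probe sets above the median, 1 after centring, 0 with 1-symbol probe sets or 2 groups alone, 41 with array weights, 49 by the authors' rule and 7 with quantile normalization without the second VE array, and leaving out 1 array gave 0 to 8 (8 without that array). For VE against wild type (0) array weights gave 22, the authors' rule 12 and leaving out any array 0. Over all probe sets these called 14.8%, 12.2% and 0% to 0.712%. The cause was not tested. Calls over all probe sets moved with the setting too. For ob/ob vehicle against wild type they were 16.2% with array weights (20.6% of the receptors), 11.8% with 2 groups alone (13.1%), 13.4% without the second VE array (16.6%), 8.87% with quantile normalization without it (10.6%) and 20.1% by the authors' rule (24.6%). For VE against ob/ob vehicle they were 14.9% with array weights (20.6%), 13.3% by the authors' rule (24.6%), 1.88% with quantile normalization without that array (3.52%) and 1.62% among probe sets above the median (14.3% of 42 receptors). Leaving out only that array gave 1.81% (4.02%), quantile normalization 1.46% (3.02%), cyclic loess 1.69% (3.02%) and trend with robust fitting 1.01% (3.02%). Centring gave 0.32% (0.503%). With 1-symbol probe sets or 2 groups alone, 0% of all probe sets were called, so these settings show nothing particular to the receptors. With the replicate block the counts were 1, 4 and 0 (0.503%, 2.01% and 0% of the receptors). Over all probe sets 1.13%, 0.648% and 0.00901% were called with it. The deviations of same-numbered arrays correlated at -0.0323 to 0.331, and those of differently numbered arrays at -0.289 to 0.111. The highest values, 0.331 and 0.216, were those of VE and ob/ob vehicle arrays numbered 1 and 2. Nothing in the labels says what the numbers mark, so no pairing was used.

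The family's median for ob/ob vehicle minus wild type (0.32) was 0.15 with quantile normalization, 0.24 after centring, 0.16 with cyclic loess and against like levels, 0.62 over members above the median, and 0.27 to 0.39 with 1 array left out. For VE minus ob/ob vehicle (-0.32) it was -0.23, -0.20 and -0.22 for the first 3, -0.62 above the median, -0.16 with quantile normalization without the second VE array, and -0.37 to -0.25 with 1 array left out. For VE minus wild type it stayed within 0.00 to 0.12. Vmn1r47 in VE against wild type was -0.0144 with array weights, and Vmn1r89 in VE against ob/ob vehicle ran from -0.05 (without the second VE array) to 0.91 with 1 array left out. Of the other values for named genes, 504 kept direction and side of the threshold, 66 passed only under the alternative and 23 no longer passed. Most members lay at or below the median signal of all probe sets, and the part of low signal in these values was not tested.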

Other observations

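Genes for the signals and carriers that vomeronasal neurons meet, which are made in liver and glands, were also read in brain at low signal. Of 31 listed, 27 were measured, with a median difference of 0.42 for ob/ob vehicle minus wild type and 26 of 27 higher (51.2% of all probe sets were higher). This was 0.29 against probe sets of like level and 0.28 after quantile normalization, with 20 of 27 higher in both. Their median was -0.06 for VE minus ob/ob vehicle. Scgb2b3, a gene of a multicopy androgen-binding protein family, was the only one called. It read 5.44, 5.69 and 5.50 in VE-treated ob/ob brains, 6.17, 5.97 and 5.83 in vehicle ob/ob brains and 4.73, 4.58 and 3.97 in wild-type brains, and rose by 1.56 in ob/ob vehicle against wild type (adjusted p = 0.0193 in limma). Mup20, the male urinary protein darcin, read 6.72, 6.23 and 7.18 in VE-treated ob/ob brains, 7.54, 7.64 and 7.95 in vehicle ob/ob brains and 6.76, 6.98 and 6.55 in wild-type brains, and did not pass in any comparison.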
